A study of Mus musculus with 12 samples.

Results

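Untreated auditory nerve of adult CBA/CaJ mice was described from 6 of the 12 arrays of the series, namely all arrays titled as controls, with 3 taken 3 days and 3 taken 7 days after surgery. What was dissected is the modiolus, the central core of the cochlea that remains after the bony shell, the lateral wall and most of the sensory epithelium are taken off. In each animal, 8 to 12 weeks old, the right ear had received ouabain, which blocks the pump that moves sodium and potassium, at 3 mM in the round window niche over about 60 min, and the left ear gave the untreated tissue. The sample group of the 3-day arrays is an unoperated contralateral control, and that of the 7-day arrays is a control. All untreated ears thus came from animals that had undergone surgery with ouabain on the other side, and no ear of an unoperated mouse is among the arrays used here. The other 6 arrays carried ouabain-treated right ears of the same days, 3 each. Each array held RNA pooled from 2 preparations, mice of both sexes were used, and the labels name neither the animals nor the sex behind a pool, so the spread between arrays is a spread between pools. The hour at which tissue was taken is not given in the sources used here.

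The auditory nerve is made of spiral ganglion neurons, which carry signals from hair cells to the brainstem, and of Schwann and satellite glia that wrap their axons and cell bodies. Toward the brainstem the myelin of Schwann cells gives way to that of oligodendrocytes, and the canal of the nerve runs through bone that holds marrow. The modiolus therefore holds neurons, glia, fibroblasts, vessels, bone and blood cells in 1 piece of tissue.

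Values were expression levels on the log2 scale, normalized together by the authors with RMA, and a difference of 1 is a 2-fold difference. A gene was represented by its brightest probe set with exactly 1 symbol, which left 18193 genes. Their median level was 7.73, the middle range from the lower to the upper quartile ran from 5.23 to 9.58, and the highest level was 14.40. In all, 12251 genes (67.3%) reached a mean of at least 6, about the median of all probe sets on an array, and 133 reached more than 13. The 6 arrays were close to each other, with medians of 6.01 to 6.04 and correlations over all probe sets of 0.990 to 0.995 for the 15 pairs, where probe sets share a wide range of brightness. Correlations were 0.992 to 0.995 within a day and 0.990 to 0.995 between days. The difference between 3' and 5' probe sets of Actb, a sign of RNA length, was 0.88 to 1.28, and 1 array, control replicate 1 at 7 days, stood apart in blood cell and cell cycle genes as described below. How bright a probe set is depends on its probes as well as on the RNA, so an order of levels between genes is an order of signals. In such bulk tissue, fewer cells of a type and less RNA per cell cannot be told apart.

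The brightest gene was Ptgds, which makes prostaglandin D2 and is abundant in meninges and myelinating glia. Its 6 values ran from 14.34 to 14.45 (mean 14.40, within-day SD 0.029). It was followed by Apod, an apolipoprotein of Schwann cells and fibroblasts, at 14.18, by Coch, the cochlin of the inner ear matrix, at 14.13, by the ferritin heavy chain Fth1 at 14.10 and by Otos, a protein of cochlear fibrocytes, at 14.03. Both Coch and Otos are known for the lateral wall and spiral limbus, and they remained among the 5 brightest genes after the lateral wall had been removed. The 25th brightest gene, the chaperone Clu, stood at 13.58, and within-day SDs in the 25 ranged from 0.00886 to 0.113. Genes of ribosomal proteins made up 5 of the 25 and 19 of the 100 brightest, and genes of mitochondrial respiration made up 17 of the 100. Other members of the 25 were Mbp (13.84), Pmp22 (13.69) and Cnp (13.68), which build and maintain myelin, and Stmn3 (13.61) and Ndrg4 (13.59), known from neurons. Values of Stmn3 ran from 13.45 to 13.72, the widest spread of the 25.

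**Figure D1:**
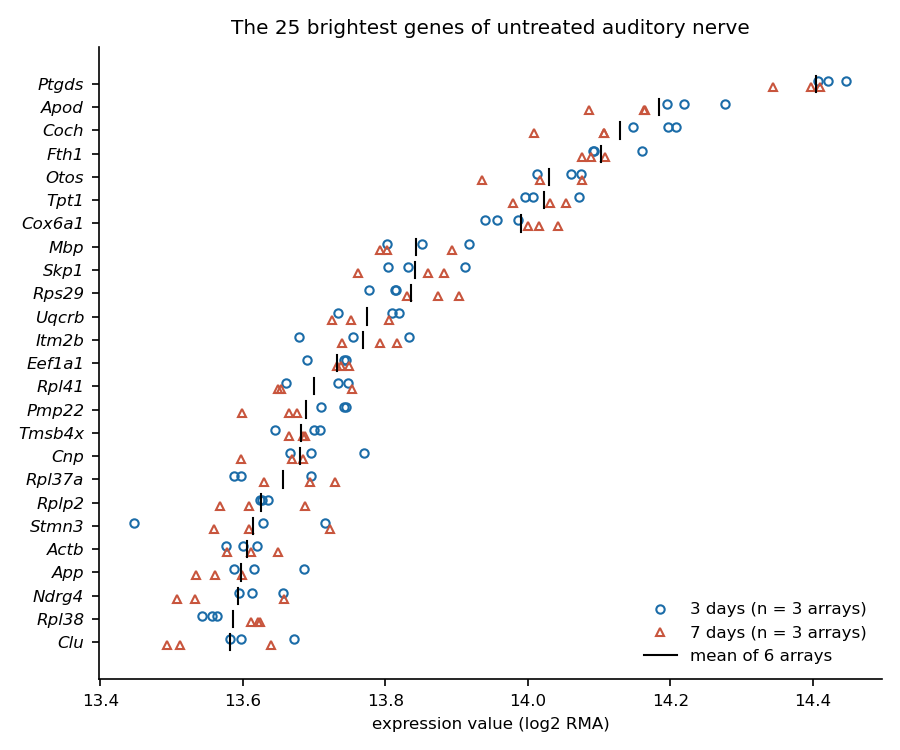
Log2 RMA expression values (x axis) of the 25 brightest genes (y axis) in untreated auditory nerve, with 1 symbol per array (circles 3 days, triangles 7 days, n = 3 each) and a bar at the mean of the 6 arrays. Means fall from 14.40 for Ptgds to 13.58 for Clu, and Stmn3 shows the widest spread.

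Neuronal genes were bright in the tissue labelled as auditory nerve. Of 34 listed genes of spiral ganglion neurons 32 were measured, all of them at a mean of at least 6 and 24 of them at a mean of at least 10, with a median of 11.25 against 7.73 over all genes. Nefl, a light neurofilament chain of axons, stood at 13.57, Snap25, a protein of synaptic vesicle fusion, at 13.29, Calb2, a calcium buffer, at 13.26 and Slc17a6, a transporter that loads glutamate into vesicles, at 11.20. The neurotrophin receptors Ntrk2 (9.62) and Ntrk3 (8.75) and the subtype marker Prph (6.77), a filament of type II neurons, were dimmer. The median within-day SD of the list was 0.16, and Nefl, with values of 13.47 to 13.65, had one of 0.067. Pcp4, a calmodulin-binding protein, was less even, with 12.54, 12.50 and 11.80 at 3 days and 13.03, 11.66 and 12.36 at 7 days.

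Myelin genes were as bright and more even. The 18 measured genes for myelin and for mature Schwann cells all had a mean of at least 6, with a median of 11.25 and a median within-day SD of 0.094. Besides Mbp, Pmp22 and Cnp, the tetraspanin Cd9 stood at 13.26, Mal, a myelin raft protein, at 13.02, Egr2, the factor that drives Schwann cell myelination, at 11.26 and Sox10, the glial identity factor, at 11.23. Genes of satellite and immature glia had a median of 9.96, with Apoe (13.22) and Glul (13.14) at the top and Gap43, a growth-associated protein, at 6.23. Markers of central glia were also present, with Mobp and Aqp4 both at 11.26, Mog at 7.71 and Olig2 at 5.20. Their median within-day SD, 0.28, was above that of the peripheral myelin list. The central list shares Gjb6 and Slc1a3 with the list for supporting cells of the organ of Corti, and Gfap with the list for immature glia.

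Markers of neighbouring tissue were present to different degrees. Hair cell genes were dim, with a median of 6.40 over 12 measured genes, and the motor protein gene Slc26a5 stood at 4.05 and the hair cell factor Pou4f3 at 5.11. Myo6, a myosin found in hair cells and elsewhere, was the brightest of them at 10.47. Supporting cells of the organ of Corti and limbus were represented by Epyc (13.09) and the connexins Gjb6 (12.80) and Gjb2 (12.53), with a list median of 9.50. Bone genes included Col1a2 (13.17), Dmp1 (12.73), a matrix protein of osteocytes, and Sost (9.36), while of 12 osteoclast genes 4 reached a mean of 6. Fibroblast genes were bright, with a median of 11.91 and Sparc (13.46) and Dcn (13.38) at the top. Granulocyte genes reached high levels as well, S100a8 at 12.38 and S100a9 at 12.19, whereas 10 of 12 genes of T and NK cells stayed under 6. Of 19 skeletal muscle genes 5 reached a mean of 6, among them Pvalb (12.91) and Myl1 (11.12), which are also known outside muscle.

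The first comparison asked whether untreated nerves differed between 7 and 3 days. Few genes passed the test. A call required more than 1.5-fold and, after Benjamini-Hochberg adjustment over 45037 probe sets in limma, a p below 0.05. By this rule 5 probe sets (0.0111%) were called, 1 higher (0.00222%) and 4 lower (0.00888%) at 7 days. Counted by the brightest probe set of each gene, 3 of 18193 genes (0.0165%) were called. Prodh, the first enzyme of proline breakdown in mitochondria, had values of 9.10, 9.16 and 9.07 at 3 days and 8.03, 8.20 and 8.15 at 7 days. The groups did not overlap, and the difference was −0.98 (standard error 0.10, adjusted p = 0.0221 by limma). Ch25h, which makes 25-hydroxycholesterol, stood at 7.52, 7.39 and 7.63 at 3 days and at 6.49, 6.58 and 6.74 at 7 days. It was lower at 7 days by −0.91 (standard error 0.11, adjusted p = 0.0231 by limma). The transcript 1700012B07Rik was dim, with 5.65, 5.41 and 5.30 at 3 days and 6.50, 6.74 and 6.37 at 7 days, a difference of 1.08 (standard error 0.12, adjusted p = 0.0221 by limma). With the replicate number as a fixed block its call was lost (adjusted p = 0.0524 by limma), while Prodh and Ch25h stayed called.

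The other called probe sets were not the brightest of their genes, and the probe sets of those genes did not act alike. For Galnt15, an enzyme that starts O-linked sugar chains, 1 probe set stood at 6.72, 7.19 and 7.31 at 3 days and at 5.13, 5.54 and 5.76 at 7 days, a difference of −1.60 (adjusted p = 0.0221 by limma). Its brighter probe set had a difference of −0.70 (adjusted p = 0.636). For Nsd1, a histone methyltransferase, 1 of 4 probe sets was called at −0.87 (adjusted p = 0.0426 by limma), and the brightest had −0.24 (adjusted p = 0.701).

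Which genes passed depended on single arrays. No probe set was called without control replicate 2 or 3 at 3 days, or without control replicate 1 or 2 at 7 days, while 3 were called without control replicate 1 at 3 days and 9 without control replicate 3 at 7 days. With 1 array left out at a time, Prodh kept a difference of −1.02 to −0.93. An unadjusted p under 0.05 by limma was reached by 3102 of 45037 probe sets and 1443 of 18193 genes. Without any difference a share of about 0.05 would reach it, and with 3 arrays a day some groups also fail to overlap. Groups did not overlap between days in 2671 of 18193 genes (14.7%), 1317 of them higher (7.24%) and 1354 lower (7.44%) at 7 days. The median difference over all genes was 0.0019.

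In the ouabain-treated ears of the same days the 3 genes had day differences of the same sign. The limma fit holds all 12 arrays, and the ears of a day may come from the same animals, so the comparisons are not independent. In ouabain-treated ears 1264 probe sets (2.81%) and 749 genes (4.12%) were called between 7 and 3 days, 338 genes higher (1.86%) and 411 lower (2.26%). Prodh stood at 8.61, 8.74 and 8.95 at 3 days and at 8.45, 8.71 and 8.46 at 7 days in them, a difference of −0.22 (adjusted p = 0.281 by limma). The difference between the ears in this day effect was 0.76 (standard error 0.15, adjusted p = 0.0376 by limma), where 0.822% of probe sets and 1.17% of genes were called. Ch25h had −0.45 in ouabain-treated ears (adjusted p = 0.0319 by limma), under the fold threshold, and the difference between ears was not called (adjusted p = 0.199). The transcript 1700012B07Rik had 1.04 there (adjusted p = 0.000648 by limma), close to its value in untreated ears.

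Among the 38 gene lists the clock genes had the largest share of members without overlap between days. The circadian clock runs in most cells: Arntl and Npas2 or Clock activate Per, Cry, Nr1d and the factors Dbp, Tef and Hlf through a short E-box motif, and the products close the loop. Of 17 measured clock genes none was called, 2 were higher and 10 lower at 7 days without overlap, and 12 had an unadjusted p under 0.05 by limma. Over all genes 7.24% were higher and 7.44% lower without overlap, and 1443 of 18193 had such a p. The median difference of the list was −0.30, against 0.0019 over all genes.

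Of the repressors, Per2 stood at 7.44, 7.75 and 7.66 at 3 days and at 5.64, 6.06 and 6.66 at 7 days. Its difference was −1.50 (standard error 0.22, adjusted p = 0.121 by limma), and it passed without control replicate 3 at 7 days, where it was −1.76 (adjusted p = 0.0274), and with array weights (adjusted p = 0.0443). With the probe sets of a gene averaged, Per2 had −0.78 (adjusted p = 0.0563), Per3 −0.55 and Arntl 0.43. Per3 had −0.87 (adjusted p = 0.121), with 9.07, 8.92 and 8.78 against 7.99, 8.05 and 8.13. Per1 did not share this, with a difference of −0.28 and values of 8.81, 9.76 and 9.60 against 9.27, 8.58 and 9.51 that overlapped. The repressor Ciart had −0.69 (adjusted p = 0.348).

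Among the output factors, Dbp stood at 12.12, 11.72 and 11.44 at 3 days and at 9.97, 10.42 and 10.76 at 7 days, a difference of −1.38 (standard error 0.26, adjusted p = 0.296 by limma). Tef had −0.52 (adjusted p = 0.198) and Hlf −0.35 (adjusted p = 0.639). The activators lay the other way. Arntl had 7.82, 8.39 and 8.24 at 3 days against 8.78, 8.77 and 8.95 at 7 days, a difference of 0.68 (adjusted p = 0.353 by limma). Npas2 had 1.03 (adjusted p = 0.434), while Clock itself had 0.067.

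In ouabain-treated ears the median difference of the list was 0.093, of the opposite sign. Of the 17 members 2 were called higher and 1 lower, where 1.86% and 2.26% of all genes were. Per2 had −1.15 (adjusted p = 0.0129 by limma), Arntl 1.08 (adjusted p = 0.00218) and Npas2 1.59 (adjusted p = 0.00414), all 3 called. Dbp had −0.86 (adjusted p = 0.0810) and Tef −0.32 (adjusted p = 0.0544). Nr1d1, a repressor of Arntl, was at 0.25 in ouabain-treated and at −0.43 in untreated ears, and the difference between ears was not called for it (adjusted p = 0.157). For none of the 17 clock genes was that difference called, in a fit that did not pair the ears.

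**Figure D2:**
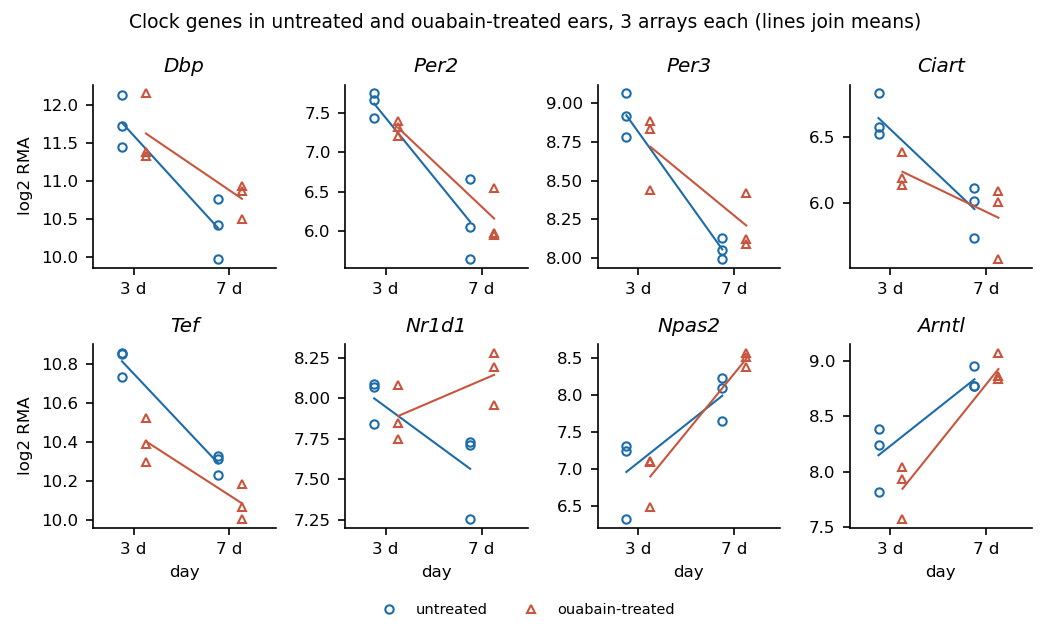
Log2 RMA values (y axes, each with its own range) of 8 clock genes at 3 and 7 days (x axes) in untreated (circles) and ouabain-treated ears (triangles), 3 arrays each, with lines between the means. In untreated ears, Dbp, Per2, Per3, Ciart, Tef and Nr1d1 lie lower at 7 days and Npas2 and Arntl higher, without overlap between days.

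Promoters are shown for 3 of the clock genes whose windows hold a searched motif. No match was found for Per2, Dbp, Arntl or Npas2, whose differences had the same sign in both ears, and 15 of the 17 measured clock genes had a window. The windows are the 250 bases before the start of the gene from RefSeq on GRCm38.p6, with a motif in capitals, and are written along the strand of the gene. The searched letters were CACGTG for the E-box, TTATGTAA for the D-box and AGGTCA for the ROR element, on both strands. The E-box was found before 5 of the 15 clock genes with a window, and before 6.86% of all 27025 genes with a window. The D-box was found before Per3 alone, and before 0.977% of all genes with a window. The ROR element was found before 4 of the 15, and before 15.8% of all genes with a window. A match describes the letters and no binding was measured. Ciart is shown with its E-boxes at chr3:95882229-95882478 on the minus strand, Tef with its E-box at the first of 2 starts at chr15:81802423-81802672 on the plus strand, and Per3 with its D-boxes at chr4:151044666-151044915 on the minus strand.
Ciart: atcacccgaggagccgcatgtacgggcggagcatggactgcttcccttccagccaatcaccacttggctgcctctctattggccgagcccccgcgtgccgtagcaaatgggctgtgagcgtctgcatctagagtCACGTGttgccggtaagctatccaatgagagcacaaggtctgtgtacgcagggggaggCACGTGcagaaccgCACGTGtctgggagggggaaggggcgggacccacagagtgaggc
Tef: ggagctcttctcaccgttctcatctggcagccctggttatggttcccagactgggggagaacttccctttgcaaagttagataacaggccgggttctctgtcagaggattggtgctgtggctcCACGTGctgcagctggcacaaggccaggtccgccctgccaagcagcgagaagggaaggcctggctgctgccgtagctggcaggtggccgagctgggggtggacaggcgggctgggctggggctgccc
Per3: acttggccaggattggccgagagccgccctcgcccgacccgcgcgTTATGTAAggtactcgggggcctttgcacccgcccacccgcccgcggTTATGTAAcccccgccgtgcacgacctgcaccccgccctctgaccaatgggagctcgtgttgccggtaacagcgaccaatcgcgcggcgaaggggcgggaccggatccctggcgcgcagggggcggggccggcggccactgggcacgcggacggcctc

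Genes that answer to glucocorticoids, the stress hormones, had 5 of 16 members lower and 1 higher at 7 days without overlap, where 7.44% and 7.24% of all genes were, and none was called. The median difference of the list was −0.12, against 0.0019 over all genes. Ddit4 of the list lay the other way, with a higher mean at 7 days and overlap between days. Plin4, a coat protein of lipid droplets, stood at 7.84, 8.55 and 9.16 against 6.89, 7.16 and 6.77, a difference of −1.58 (adjusted p = 0.241 by limma). Sult1a1, a sulfotransferase, had −0.72 (adjusted p = 0.114), Zbtb16 −0.95 (adjusted p = 0.353) and Fkbp5, a chaperone of the hormone's receptor, −1.31 (adjusted p = 0.434), whose 9.91 in control replicate 3 at 7 days lay near the 3-day values. Smooth muscle and pericyte genes had a median of −0.31, with Myh11, a myosin of smooth muscle, at −0.82 (adjusted p = 0.320). In mitochondrial respiration, 9 of 20 members were higher without overlap, where 7.24% of all genes were, at a median of 0.063. The granulocyte gene Stfa2l1 had the widest day difference of its list, with 6.68, 8.46 and 8.38 against 4.71, 4.39 and 3.97 (difference −3.48, adjusted p = 0.296 by limma), and it was called in ouabain-treated ears (−3.31, adjusted p = 0.0110). Of the genes of spiral ganglion neurons and myelin, 0 were called, and the median differences were −0.051 and −0.052. Without overlap were 1 higher and 4 lower of 32 neuronal genes, and 3 higher and 5 lower of 18 myelin genes.

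The next question was which genes varied most between untreated arrays of a day. Most were steady: the within-day SD, pooled over both days with 4 degrees of freedom, had a median of 0.12 over the 12251 genes with a mean of at least 6, and 81.0% were under 0.2. Only 286 genes (2.33%) exceeded 0.5, 72 (0.588%) exceeded 1 and 11 exceeded 2. The ouabain-treated arrays had a median SD of 0.13 and 62 genes over 1, of which 26 were over 1 in both ears. In 33 of the 72 genes the array farthest from its day mean was control replicate 1 at 7 days, against 5 to 11 for the others, and without it 40 genes exceeded 1. The filter on the mean used the same 6 arrays and can admit a gene through the array where it is high. Car1, for one, had a mean of 6.05, with 8.90 in control replicate 1 at 7 days and 4.88 to 6.25 elsewhere. These counts are therefore a description.

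**Figure D3:**
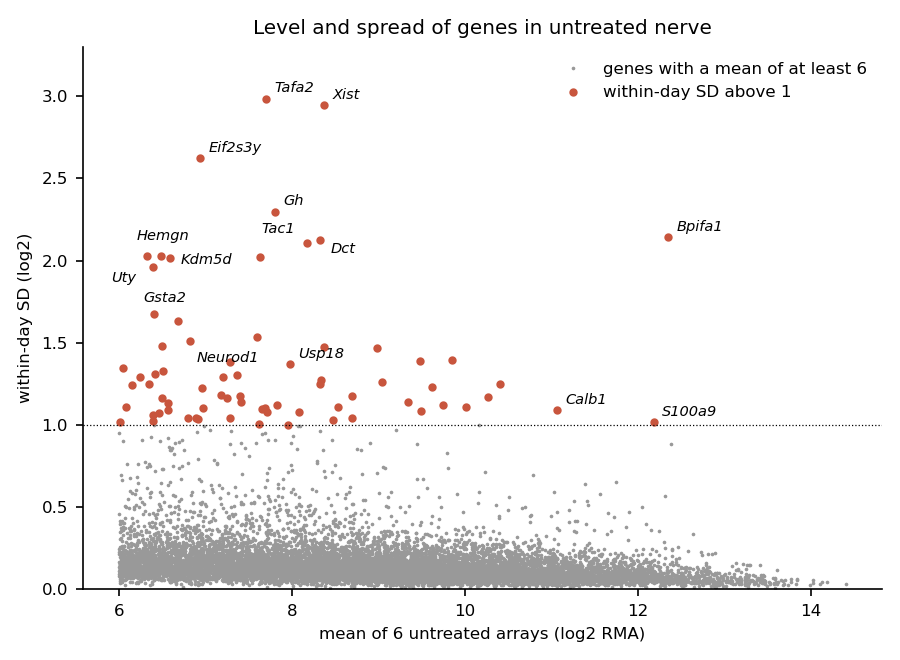
Within-day SD (y axis, log2) against mean level (x axis, log2 RMA) for the 12251 genes with a mean of at least 6 over the 6 untreated arrays, 1 point per gene, with the 72 genes over an SD of 1 in red. The median SD is 0.12, the cloud narrows toward the brightest genes, and Tafa2, Xist and Eif2s3y lie highest.

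Genes of the sex chromosomes were among the most varied. Xist, the RNA that coats the inactive X of females, stood at 5.94, 11.01 and 11.32 at 3 days and at 5.63, 5.71 and 10.63 at 7 days (within-day SD 2.94). The Y-linked Eif2s3y, a translation factor, stood at 9.47, 3.21 and 3.03 and then at 9.07, 8.83 and 8.03 (SD 2.62). High Xist with low Y-linked signal was thus seen in control replicates 2 and 3 at 3 days, the reverse in replicate 1 at 3 days and replicates 1 and 2 at 7 days, and both together in replicate 3 at 7 days. Kdm5d and Uty, also on the Y, had SDs of 2.02 and 1.96 and followed Eif2s3y with correlations of 0.998 over the 6 arrays. X-linked genes that escape inactivation varied less, Kdm6a by 0.39 and Eif2s3x by 0.195. The ouabain-treated array of the same number repeated the pattern at each day, with Xist at 5.45, 12.11 and 11.77 and at 5.08, 5.48 and 10.15. Pools at 3 and 7 days therefore differed in these signals, and their part in the day comparison was not tested.

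**Figure D4:**
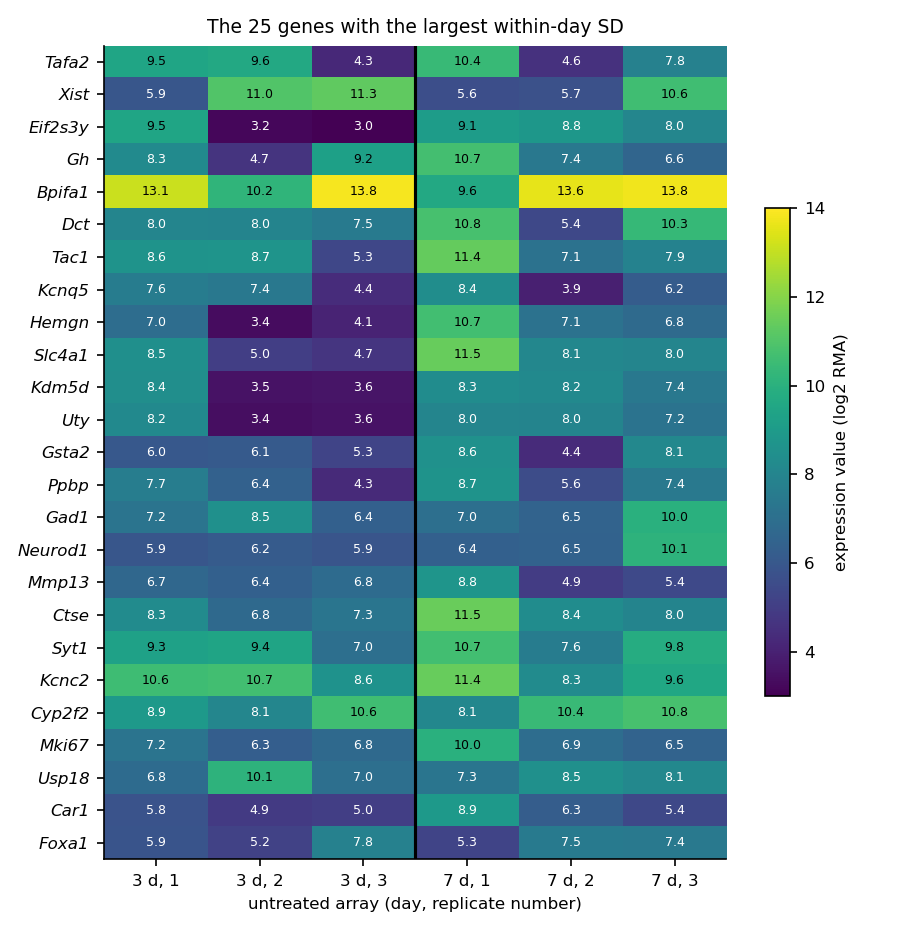
Log2 RMA values (colour and printed number) of the 25 genes with the largest within-day SD (rows, largest at the top) in the 6 untreated arrays (columns, by day and replicate number). Xist is at 10.6 or more in 3 arrays and under 6 in the other 3, and Hemgn, Slc4a1, Ctse, Mki67 and Car1 are highest in control replicate 1 at 7 days.

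Red cell genes stood high in control replicate 1 at 7 days. Hemgn, a nuclear factor of blood progenitors, had values of 6.95, 3.37 and 4.08 at 3 days and 10.66, 7.13 and 6.78 at 7 days (SD 2.03). Slc4a1, the anion exchanger of the red cell membrane, had 8.47, 5.05 and 4.70 and then 11.45, 8.10 and 8.01 (SD 2.02). In each day the first replicate was the highest. Among genes with an SD over 0.5, the closest to Hemgn in their deviations from the day means were Slc4a1 (correlation 0.98), the collagen gene Col1a1 (0.96), the erythroid factor Klf1 (0.94) and Ctse (0.94). Of 16 measured erythroid genes, all 16 were above their day mean in control replicate 1 at 7 days, by a median of 0.85, and 14 were in replicate 1 at 3 days, by 0.18. Over all 18193 genes, 8181 were above their day mean in the former. Levels of Hemgn in ouabain-treated ears were 6.81, 3.52 and 4.34 and then 8.40, 6.55 and 7.40, again with the first replicate highest at each day. The list's median day difference was 0.76 and 11 of 16 had an unadjusted p under 0.05, against 1443 of 18193 genes, with 0 called, where 1 array of the 7-day group holds the highest values.

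Cell division genes stood high in the same array. Of 28 measured cell cycle genes, 27 were above their day mean in control replicate 1 at 7 days, by a median of 0.87. Mki67, a marker of dividing cells, stood at 7.23, 6.29 and 6.75 at 3 days and at 9.98, 6.94 and 6.49 at 7 days, so 1 array lay far above the others. Top2a, which untangles DNA, had 8.37 in that array and 5.82 to 6.14 in the other 5. The B cell gene Ighm, the heavy chain of IgM, had 10.67 there and 7.73 to 8.54 elsewhere, and the osteoclast phosphatase Acp5 had 8.38 against 4.63 to 6.29. The collagenase Mmp13 was at 8.75 there and at 4.94 to 6.83 elsewhere.

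Among granulocyte genes 9 of 14 had an SD over 1, where 0.588% of the genes with a mean of at least 6 did. All 14 were above their day mean in control replicate 1 at 7 days, by a median of 1.40, and all 14 were below it in control replicate 3 at 7 days, by −1.38. S100a9, a calcium-binding protein that neutrophils store in bulk, stood at 12.65, 12.45 and 12.52 at 3 days and at 13.22, 11.93 and 10.35 at 7 days. Ngp, a granule protein of maturing neutrophils, had 10.62, 10.28 and 10.36 and then 11.71, 10.22 and 8.43. The granule protease Ctsg, made at earlier stages, followed another order, with 7.78, 9.05 and 9.94 at 3 days and 8.06, 6.14 and 5.99 at 7 days. Macrophage genes were steady beside them, with none of 18 over an SD of 1 and a median deviation that ranged over 0.32 between arrays.

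Of the 32 genes of spiral ganglion neurons 1 had an SD over 1, and other genes known from neurons varied more. Tafa2, a secreted chemokine-like protein of neurons, had the largest SD of all, 2.99, with 9.48, 9.63 and 4.27 at 3 days and 10.41, 4.58 and 7.83 at 7 days. Among genes with an SD over 0.5, to which all such comparisons were limited, those closest to it were the potassium channel Kcnd3 (correlation 0.996), Fgf13 (0.99), the potassium channel Kcnq5 (0.99), the cadherin Pcdh9 (0.99) and the vesicle sensor Syt1 (0.99), each over the same 6 arrays. Syt1 stood at 9.31, 9.44 and 7.01 and at 10.67, 7.64 and 9.83, so replicate 3 at 3 days and replicate 2 at 7 days were low. Tac1, the precursor of substance P, was at 8.65, 8.68 and 5.34 and at 11.39, 7.14 and 7.86, and the potassium channel Kcnc2 at 10.57, 10.67 and 8.59 and at 11.44, 8.30 and 9.57. In the same arrays Nefl kept within 13.47 and 13.65. Sec14l3 lay opposite to Tafa2, with a correlation of −0.98.

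A further group was high in 1 array, control replicate 3 at 7 days. Neurod1, a factor of granule and sensory neurons, had 5.93, 6.16 and 5.91 at 3 days and 6.39, 6.46 and 10.11 at 7 days. Gabra6, a GABA receptor subunit of cerebellar granule cells, stood at 11.12 in that array and at 3.85 to 6.07 in the other 5. Car8 and Pcp2, known from Purkinje cells, stood at 10.38 and 8.78 there, against 3.76 to 4.69 and 4.78 to 5.11. Cbln3, a granule cell protein, was at 9.59 against 4.19 to 4.99. All 12 measured genes of the list for cerebellum and cochlear nucleus were above their day mean in this array, by a median of 1.62, and central glia markers were above theirs in 16 of 16, by 0.29. The list had a median day difference of 0.80 with 0 of 12 called, and that array held the highest values of the 7-day group. In ouabain-treated ears Gabra6 was high in other arrays, at 8.01 in replicate 3 at 3 days and 8.84 in replicate 2 at 7 days.

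**Figure D5:**
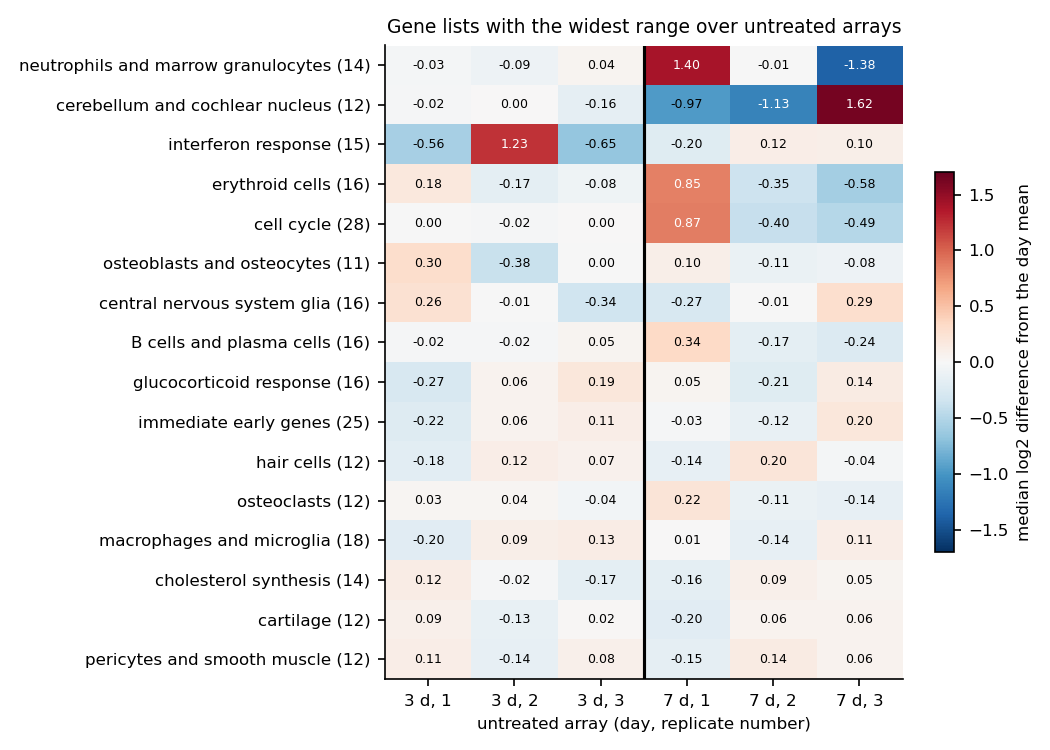
Median log2 difference from the day mean (colour and printed number) over the members of the 16 gene lists with the widest range between untreated arrays (rows, measured members in parentheses), for the 6 untreated arrays (columns). The granulocyte list spans 1.40 to −1.38 and the cerebellar list 1.62 to −1.13, both among the 7-day arrays, and the interferon list stands at 1.23 in control replicate 2 at 3 days.

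Interferon-response genes stood high in control replicate 2 at 3 days. Interferons are alarm signals against viruses, and they switch on antiviral genes through a shared promoter element. All 15 measured genes of the list were above their day mean in that array, by a median of 1.23, against −0.56 and −0.65 in the other arrays of the day. Usp18, which dampens interferon receptor signals, stood at 6.83, 10.10 and 7.03 at 3 days and at 7.25, 8.51 and 8.14 at 7 days (SD 1.37). Ifit1, which binds foreign RNA, stood at 9.19, 11.31 and 9.48 and at 9.35, 9.78 and 9.69, and Bst2, which tethers budding viruses, at 8.12, 10.46 and 7.87 and at 8.17, 8.79 and 8.74. The 10 genes with deviations most like Usp18 over the 6 arrays ran from Ifit1 at a correlation of 0.99 to Irf9 at 0.97, with Irf7, Oasl2, Bst2 and Ifit3 among them. The ouabain-treated array of the same day and number did not share this, with Usp18 at 7.21.

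Promoters are shown for 3 of these genes, which varied together across arrays and were among those that hold the searched element. They are RefSeq windows of 250 bases before the gene start on GRCm38.p6, with the interferon-stimulated response element, searched on both strands as GAAA, any 2 bases and GAAA again, in capitals. Of 11 measured list genes with a window, 7 held it, and 3.46% of all 27025 genes with a window did. In Bst2 a pair of matches overlap. The windows lie at chr19:34640639-34640888 on the plus strand for Ifit1, at chr19:34583279-34583528 on the plus strand for Ifit3 and at chr8:71537473-71537722 on the minus strand for Bst2.
Ifit1: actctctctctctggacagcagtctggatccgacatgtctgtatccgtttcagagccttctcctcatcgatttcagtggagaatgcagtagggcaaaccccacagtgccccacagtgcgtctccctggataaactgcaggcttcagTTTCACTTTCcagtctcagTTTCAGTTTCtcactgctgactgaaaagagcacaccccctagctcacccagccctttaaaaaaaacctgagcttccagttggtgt
Ifit3: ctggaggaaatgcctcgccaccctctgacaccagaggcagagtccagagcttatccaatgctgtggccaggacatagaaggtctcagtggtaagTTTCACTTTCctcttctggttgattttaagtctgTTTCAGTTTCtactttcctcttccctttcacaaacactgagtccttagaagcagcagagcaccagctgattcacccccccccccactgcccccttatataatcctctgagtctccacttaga
Bst2: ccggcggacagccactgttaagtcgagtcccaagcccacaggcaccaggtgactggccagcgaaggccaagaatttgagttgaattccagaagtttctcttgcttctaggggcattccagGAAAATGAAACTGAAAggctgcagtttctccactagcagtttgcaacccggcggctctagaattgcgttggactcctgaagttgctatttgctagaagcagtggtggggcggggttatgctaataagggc

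Single epithelial and pigment cell genes varied widely, while of the lists for epithelium and for lateral wall and melanocytes 2 of 14 and 1 of 16 members had an SD over 1. Bpifa1, a secreted protein of airway and middle ear lining, stood at 13.10, 10.18 and 13.84 at 3 days and at 9.63, 13.59 and 13.75 at 7 days (SD 2.14), with values over 13 in 4 arrays. Closest to it were the Clara cell enzyme Cyp2f2 (correlation 0.94), Klf2 (0.93), Clk1 (0.92), Tnnt2 (0.91), AU040972 (0.91) and the epithelial factor Foxa1 (0.91). Tecta, the tectorin of the tectorial membrane, lay opposite with a correlation of −0.997, at 6.16, 7.82 and 5.75 and at 7.69, 5.52 and 5.14. Such values are the extremes of 286 genes over 6 arrays, where Xist had 0.996 with Fos. A shared cell of origin was not tested. Dct, an enzyme of melanin synthesis, stood at 8.00, 7.96 and 7.49 and at 10.78, 5.40 and 10.35 (SD 2.12). Dnase1 and Gsta2, both with correlations of 0.99, and Kcne1, a potassium channel subunit of marginal cells (0.98), followed Dct. Tyr, the first enzyme of melanin, was dim at 4.21 to 6.95. The pituitary hormone gene Gh stood at 8.25, 4.66 and 9.24 and at 10.70, 7.39 and 6.58, and all of its 4 probe sets exceeded an SD of 1.

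Ears of the same number were compared as a description, over 6 pairs of untreated and ouabain-treated arrays with deviations from their own day means. The median correlation was 0.34 over the 12251 genes and 0.25 over the 72 varied ones. Sex-linked genes had a list median of 0.94 and genes of the glucocorticoid response one of 0.80, with Ddit4, which curbs growth signals, at 0.99. Ddit4 stood at 10.38, 11.57 and 12.07 and at 12.39, 11.81 and 12.27. Clock genes had a median of 0.75, macrophage genes 0.66 and erythroid genes 0.60, with Slc4a1 at 0.92. Immediate early genes had 0.57, and the phosphatase Dusp1, at 10.88 in replicate 1 at 3 days and 11.57 to 12.07 elsewhere, had 0.95. Below 0 were interferon response at −0.44, central glia at −0.35, cerebellum at −0.31 and epithelium at −0.14, with Bpifa1 at −0.64. Also below 0 were T and NK cells and skeletal muscle, both at −0.26, myelin at −0.099, meninges at −0.091 and hair cells at −0.037. Each correlation rests on 6 pairs that share a day mean.

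At the other end, the steadiest genes with a mean of at least 10 differed by hundredths. Rpl38, a ribosomal protein, had the lowest within-day SD, 0.00886, with 13.54, 13.56 and 13.56 at 3 days and 13.61, 13.62 and 13.62 at 7 days. Next were Gtf2h5, a subunit of the repair and transcription factor TFIIH, Psmc1, a proteasome subunit, and Itih5 and Stmn1. Among 13 measured genes often used as references, Eef1a1 had an SD of 0.023, Actb 0.029 and Pgk1 0.036, whereas B2m had 0.25 and Gusb 0.16. The median deviation of the reference list ranged over 0.027 between the arrays.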

How the data were processed

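Expression was measured on Affymetrix mouse arrays, 3 per group, in untreated and ouabain-treated auditory nerve at 3 and 7 days. The authors made the deposited log2 values with RMA in the Affymetrix Expression Console (MAS5 was also run). No version is given in the sources used here. The paper states 50 ng of input RNA, whereas the labels state 100 ng. The number of arrays limits the precision. Values were used as deposited. Of 45101 probe sets, 64 controls were left out. Symbols came from the platform annotation, where 932 probe sets have several symbols and 9160 none, and 34741 of 34945 were matched to RefSeq by Entrez identifier. A gene is its brightest probe set with 1 symbol over the 12 arrays.

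All 12 arrays entered 1 model of the 4 groups (limma 3.58.1, R 4.3.3), with the contrast of 7 against 3 days in untreated ears, the same in treated ears and their difference. Calls needed an adjusted p under 0.05 over 45037 probe sets and a fold above 1.5. Figures and summaries used Python 3.11.15, pandas 2.3.3 and matplotlib 3.10.9. The spread is the SD around day means. The fit and the spread were tested on simulated data.

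Named are the 25 brightest genes, the called genes between days, the 25 with the largest within-day SD at a mean of at least 6, the 2 brightest and 2 most varied of each list, the 10 steadiest at a mean of at least 10, and sex-linked and reference genes. Other genes were chosen after their values were seen. The members, the 38 gene lists and this rule were chosen with earlier results of these data known. A listed gene whose probe sets all carry several symbols or none was left out.

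Deviations of same-numbered untreated and treated arrays of a day correlated at 0.019 to 0.334 over 6 pairs. Not all exceeded 0.1, and the labels tie no number to an animal, so the main fit did not take numbers as pairs. The Xist pattern, however, was the same in both ears of each number, and fits with a replicate block are among the alternatives. Alternatives were other samples, blocks, thresholds, filters, normalizations, moderation, array weights, the methods' unpaired test, other gene summaries and leaving out each untreated array.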

Additional observations from a re-analysis of the deposited data

Results flagged for a closer look

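Values far from the other 5 untreated arrays were sought in 38 lists (median difference from the mean of the 6 arrays) and in the 25 most varied genes. Chance gives such a gap in about 1 of 20 groups that are picked without knowing the data. The lists were chosen with earlier results of these data known, and the genes for their spread over the same arrays. That rate therefore holds for neither, and all values here are a description. In control replicate 1 at 7 days such a gap held for the cell cycle list (1.14), the erythroid list (1.21), the B cell and plasma cell list (0.433) and for Ctse (11.5), Mki67 (9.98) and Car1 (8.90). In control replicate 3 at 7 days it held for the cerebellum and cochlear nucleus list (2.004), for Neurod1 (10.1) and, at a small size, for the list of lateral wall and melanocytes (0.0798). In control replicate 2 at 3 days it held for the interferon list (1.20), and in control replicate 3 at 3 days for the hypoxia and glycolysis list, which lay lowest at −0.121. The day effect of Prodh differed between untreated and ouabain-treated ears by 0.759 on the log2 scale (adjusted p = 0.0376 by limma).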

How the results depend on the processing

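The count of 5 probe sets between untreated days became 0 on the 6 untreated arrays alone, 2 at a fold above 2, 12 with array weights, and 111 or 0 by the methods' unpaired test with unadjusted or adjusted p. Leaving out 1 array gave 0 to 9. It was 4 to 7 under no fold threshold, the filter on dim probe sets, both other normalizations and robust moderation. The fixed replicate block gave 5, of which 3 were shared, and the random replicate block 6. That the numbers pair the ears is not stated, and 6 of 6 untreated but 4 of 6 treated arrays correlated best with their own number. In treated ears the count of 1264 became 2353 without a fold threshold and 416 at a fold above 2. The 370 differences between ears became 718 with the random block and 231 at a fold above 2, and 219 to 384 without 1 array. The 72 varied genes became 46 by the median absolute deviation and 40 to 93 without 1 array, lowest without control replicate 1 at 7 days. With the probe sets of a gene averaged they became 50, and 17 of the 25 most varied genes remained among the top 25. Of the 25 brightest genes, 13 remained when probe sets of a gene were averaged. The causes were not tested. Prodh and Ch25h each lost their call in 8 of 19 alternatives and 1700012B07Rik in 7. No direction turned, although many alternatives leave the difference itself as it was. With 3 arrays of pools per group, small differences are not detectable, and dim genes near 4 cannot be told from background.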
